A study of Homo sapiens with 6 samples.

Results

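The 40 genes described here are the regulators of the transcription factor NRF2 (gene symbol NFE2L2), its antioxidant and detoxifying target enzymes, and the glutathione, thioredoxin and peroxiredoxin systems. They were taken by symbol from a fixed list, which was chosen with earlier results of these data known. All 40 had a row among the 28278 symbols of the count tables. RNA was profiled in HCT116, an established human colon carcinoma line, in 2 groups of 3 libraries. The shControl cells, labelled wild type for TRIM21, stably carried a scrambled shRNA, and the shTRIM21 cells, labelled as a TRIM21 knockdown, carried an shRNA against TRIM21, which encodes an E3 ubiquitin ligase. Both groups received their shRNA by lentivirus, were kept in puromycin at 5 µg/ml from 36 h after infection for 2 to 3 weeks, and are labelled day 21. The labels call the libraries of a group biological replicates. They do not say whether a group is 1 clone, how many shRNAs were used, or that replicates are separate cultures. The p-values here reflect only the spread among these libraries, which could be technical.

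NRF2 is held low in unstressed cells by KEAP1, an adaptor that presents it to a CUL3 ubiquitin ligase. When oxidants or electrophiles modify KEAP1, NRF2 enters the nucleus, pairs with a small MAF protein (MAFF, MAFG or MAFK) and binds antioxidant response elements, which BACH1 occupies as a repressor. Its targets make glutathione, reduce thioredoxin and peroxiredoxins, and conjugate or export toxic compounds. TRIM21 is known to ubiquitylate SQSTM1 (p62), a protein that sequesters KEAP1.

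Of the 40 genes, 34 passed the filter on low counts. In the shTRIM21 cells 9 of them rose and 1 fell at an adjusted p under 0.05 (quasi-likelihood test of edgeR, adjusted by Benjamini-Hochberg over all 14002 genes tested), and 24 did not pass. Over all genes tested, 4.43% rose and 4.66% fell, and 9.08% were called in either direction. The genes that rose were those of cytosolic thioredoxin and its reductase (TXN and TXNRD1), sulfiredoxin (SRXN1), the glutathione peroxidases GPX1 and GPX4, glutathione synthetase (GSS), peroxiredoxin 5 (PRDX5), superoxide dismutase 1 (SOD1) and the NRF2 partner MAFG. Their log2 fold changes ran from 0.29 to 0.48. Glutathione reductase (GSR) was the gene that fell, by 0.50 on the log2 scale. The median log2 fold change over the 34 genes was 0.14, against 0.01 over all genes tested, and 27 of the 34 were positive, against 51.8% of all genes. All shTRIM21 libraries lay above all controls for 13 of the 34 genes and below them for 3, against 14.1% and 13.9% of all genes tested. These are bulk libraries, in which a change in every cell and a change in the share of cells with a transcript cannot be told apart. The plot of fold changes by role shows these values.

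**Figure D1:**
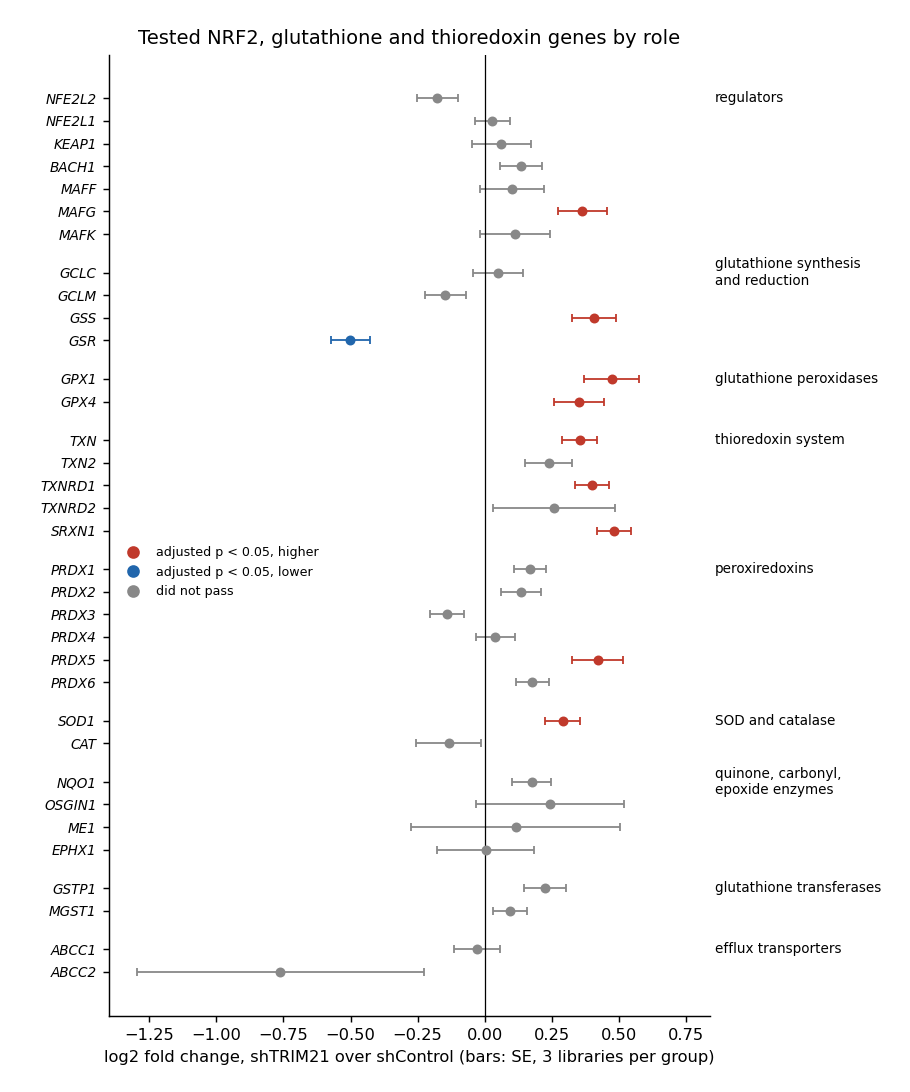
Log2 fold change (x axis, shTRIM21 over shControl) of each of the 34 tested genes, grouped by role, with bars of 1 SE and 3 libraries per group. The 9 red points that rose lie between 0.29 and 0.48, and GSR in blue lies at -0.50, and MAFG is the 1 regulator among the red points.

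Library totals ran from 22656160 to 27123657 counts. TRIM21 itself stood at 11.8, 11.7 and 15.8 CPM (the count relative to the library total, scaled by TMM) in shControl and at 8.83, 8.18 and 6.68 CPM in shTRIM21. It fell by 0.73 on the log2 scale (SE 0.17, adjusted p = 0.0124), a call lost without shTRIM21 replicate 3 (-0.62, adjusted p = 0.0734) as well as in a fit that leaves out both libraries numbered 3 (-0.45, adjusted p = 0.114). Of 9 epithelial markers 8 were tested, with DSG2 at 254 CPM, DSP at 98.9 CPM and KRT18 at 78.7 CPM the highest in shControl. Of the 8, 1 passed edgeR's test (DSP, a desmosome protein, which fell by 0.25 on the log2 scale, adjusted p = 0.0318), 6 had negative fold changes, 5 had all shTRIM21 libraries below the controls, and the median was -0.22. The part of this shift in the results that follow was not tested. Of 7 colon markers 3 were tested, all 3 with negative fold changes that did not pass, and CDX1, LGALS4 and FABP1 were listed at 0. The summed level of the fibroblast, endothelial, leukocyte and hepatocyte markers was at most 0.320 CPM per list in any library. Replicate 3 had the lowest share of ribosomal RNA counts in each group, 6.69% in shControl and 9.55% in shTRIM21, against 13.2% to 15.2% in the other libraries.

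The regulators came first in the comparison. NFE2L2, on chromosome 2 at 177227595 to 177392697 (minus strand, GRCh38, ENSG00000116044), stood at 102, 107 and 119 CPM in shControl and at 89.7, 99.6 and 101 CPM in shTRIM21. All 3 shTRIM21 values lay below the lowest control value, but the gap was small. Its log2 fold change was -0.18 (SE 0.08) and did not pass, with an adjusted p of 0.17. KEAP1, the repressor, had 41.8, 38.0 and 33.8 CPM in shControl and 46.3, 36.8 and 35.3 CPM in shTRIM21, and the groups overlapped (log2 fold change 0.06, SE 0.11, adjusted p = 0.789). BACH1, which competes with NRF2 for its sites, had 89.0, 90.0 and 93.1 CPM in shControl and 90.6, 96.9 and 112 CPM in shTRIM21, also with overlap. Its log2 fold change was 0.14 (SE 0.08, adjusted p = 0.318). NFE2L1, a relative of NRF2 known for driving proteasome genes, had a log2 fold change of 0.03.

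Among the small MAF genes, MAFG alone passed the test, though the difference between the 3 was not itself tested. MAFG, on chromosome 17 at 81918270 to 81927714 (minus strand, ENSG00000197063), stood at 44.6, 43.1 and 38.6 CPM in shControl and at 54.7, 58.5 and 49.4 CPM in shTRIM21. Every shTRIM21 library lay above every control. It rose by 0.36 on the log2 scale (SE 0.09, adjusted p = 0.017). Leaving out shTRIM21 replicate 1 (0.36, adjusted p = 0.0542) or shTRIM21 replicate 2 (0.31, adjusted p = 0.107) ended the call. MAFF and MAFK, at 0.10 and 0.11, did not pass. MAFG shares part of its locus with SIRT7 on the same strand and with an antisense transcript, and reads of such neighbours may be counted together.

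All 3 genes of the cytosolic thioredoxin system in the list rose. Thioredoxin (TXN) is a small dithiol protein that reduces disulfides in its clients, thioredoxin reductase 1 (TXNRD1) is the selenoenzyme that recharges it with NADPH, and sulfiredoxin (SRXN1) repairs overoxidised peroxiredoxins. TXN, on chromosome 9 at 110243811 to 110256640 (minus strand, ENSG00000136810), had 171, 162 and 187 CPM in shControl and 218, 222 and 226 CPM in shTRIM21. Its groups did not overlap, and it rose by 0.35 on the log2 scale (SE 0.07, adjusted p = 0.00216). TXNRD1, on chromosome 12 at 104215779 to 104350305 (plus strand, ENSG00000198431), had 594, 592 and 619 CPM in shControl and 757, 788 and 837 CPM in shTRIM21. The controls lay within 26.7 CPM of each other, and the lowest shTRIM21 library lay 138 CPM above the highest of them. TXNRD1 rose by 0.40 (SE 0.06, adjusted p = 0.000418).

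SRXN1, on chromosome 20 at 646615 to 653370 (minus strand, ENSG00000271303), had 132, 122 and 123 CPM in shControl and 175, 169 and 182 CPM in shTRIM21. No libraries overlapped between the groups. It rose 1.40-fold, by 0.48 on the log2 scale (SE 0.06, adjusted p = 9.38e-05), the largest increase among the 34 genes tested here. TXN, TXNRD1 and SRXN1 kept their calls in each of the 18 alternative fits. The mitochondrial counterparts had positive fold changes and did not pass. Mitochondrial thioredoxin, TXN2, had 50.2, 48.0 and 42.2 CPM in shControl and 51.8, 55.6 and 58.1 CPM in shTRIM21, with no overlap and a log2 fold change of 0.24 (SE 0.09, adjusted p = 0.103). Mitochondrial thioredoxin reductase, TXNRD2, averaged 4.47 CPM in shControl and 5.36 CPM in shTRIM21, with overlap (0.26, SE 0.23, adjusted p = 0.547). Whether the cytosolic and mitochondrial genes differed in their response was not tested.

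**Figure D2:**
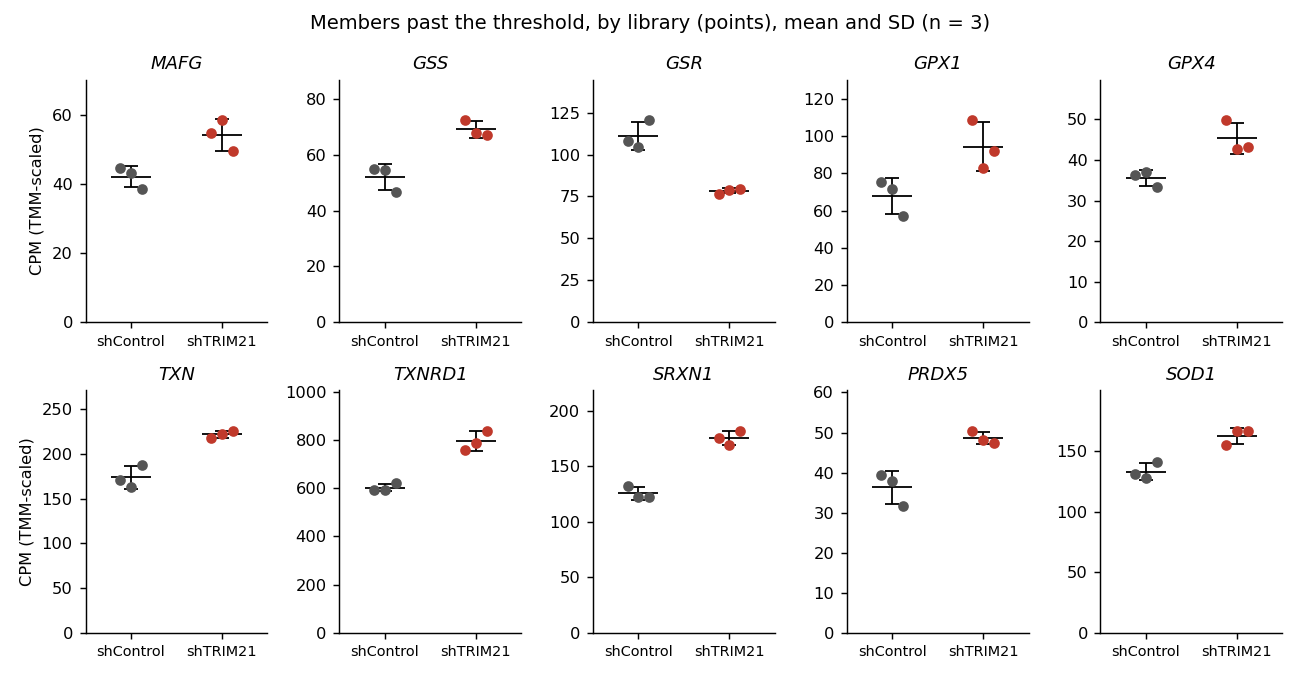
TMM-scaled CPM (y axis, from 0) of the 10 genes past the threshold in each of 3 shControl and 3 shTRIM21 libraries (points), with the mean and SD. In each panel the groups do not overlap, with all shTRIM21 libraries above the controls for 9 genes and below them for GSR.

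The glutathione genes did not move one way. Glutathione is made in 2 steps, by glutamate-cysteine ligase, with its catalytic subunit GCLC and modifier subunit GCLM, and then by glutathione synthetase, GSS, while GSR returns oxidised glutathione to its reduced form with NADPH. GCLC, at 15.5 CPM per kb in shControl and 16.1 in shTRIM21, had a log2 fold change of 0.05 (SE 0.09, adjusted p = 0.796). GCLM had 127, 129 and 153 CPM in shControl and 116, 129 and 124 CPM in shTRIM21. Its groups overlapped and its log2 fold change was negative, at -0.15 (SE 0.08, adjusted p = 0.267). GSS, on chromosome 20 at 34928433 to 34956027 (minus strand, ENSG00000100983), had 54.9, 54.8 and 46.9 CPM in shControl and 72.6, 67.8 and 67.3 CPM in shTRIM21. Every shTRIM21 value was above the controls, and GSS rose by 0.41 (SE 0.08, adjusted p = 0.00452), keeping its call in all 18 alternative fits.

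GSR, on chromosome 8 at 30678061 to 30727999 (minus strand, ENSG00000104687), went the other way. It had 108, 105 and 121 CPM in shControl and 76.7, 79.0 and 79.6 CPM in shTRIM21. The shTRIM21 libraries lay close together and well below all controls. The change was 0.706-fold (SE 0.07 on the log2 scale, adjusted p = 0.00019), and the call held in each of the 18 alternative fits, with log2 values from -0.54 to -0.43. TXNRD1 lay above all controls and GSR below them in every shTRIM21 library, so the ratio of these reductases could not overlap between the groups. Per kb of the longest annotated transcript, TXNRD1 stood at 4.11, 4.23 and 3.83 times the level of GSR in the 3 controls and at 7.37, 7.45 and 7.85 times in the 3 shTRIM21 libraries. This ratio was chosen after its values were seen and carries no test of its own.

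Glutathione peroxidases spend glutathione on peroxides, and GPX1 and GPX4, both selenoenzymes, rose. From the wider pathway list, GPX3 (0.34, adjusted p = 0.656) and GPX8 (0.05, adjusted p = 0.72) had overlapping groups and did not pass. GPX1, the abundant cytosolic form, lies on chromosome 3 at 49357171 to 49358600 (minus strand, ENSG00000233276) and had 75.3, 71.9 and 57.1 CPM in shControl and 109, 82.9 and 91.8 CPM in shTRIM21. Both groups spread widely but did not overlap, and the rise was 0.47 (SE 0.10, adjusted p = 0.00714). Leaving out the highest library, shTRIM21 replicate 1, ended the call (0.36, adjusted p = 0.0541), and the GC and length offset, a correction for the base composition and length of the transcript, gave 0.26 (adjusted p = 0.00453). GPX4, which reduces lipid peroxides in membranes, lies on chromosome 19 at 1103926 to 1106791 (plus strand, ENSG00000167468). It had 36.3, 37.0 and 33.2 CPM in shControl and 49.8, 42.8 and 43.3 CPM in shTRIM21, a rise of 0.35 (SE 0.09, adjusted p = 0.0239).

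The GPX4 call was lost in several alternative fits. Fits that left out shControl replicate 1, shTRIM21 replicate 1 or shTRIM21 replicate 3 did not call it (adjusted p = 0.0613, 0.12 and 0.056). The GC and length offset gave a log2 fold change of 0.15 (adjusted p = 0.201). GPX2, the intestinal form, had too few reads to be tested. The controls held 2, 6 and 2 of its reads, and the shTRIM21 libraries 7, 10 and 35. All 3 shTRIM21 counts were the higher ones, but 35 of their 52 came from replicate 3, and a fit with no filter on low counts gave an adjusted p of 0.128.

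Peroxiredoxins are thiol peroxidases, most of which depend on thioredoxin. PRDX1 was the gene with the highest level per length among the 34, at 321 ± 14.3 CPM per kb in shControl and 361 ± 1.31 in shTRIM21 (SD, n = 3 per group). In CPM it had 385, 387 and 417 in shControl and 444, 447 and 444 in shTRIM21. The groups did not overlap, yet the difference was small and did not pass (log2 fold change 0.17, SE 0.06, adjusted p = 0.0865). PRDX6, a glutathione-dependent form, was like it, with 263, 248 and 265 CPM in shControl, 284, 294 and 301 CPM in shTRIM21 and an adjusted p of 0.0729. Each of the 2 passed in 4 of the 18 alternative fits.

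PRDX5, found in mitochondria, peroxisomes and cytosol, was the peroxiredoxin that rose. It lies on chromosome 11 at 64318088 to 64321811 (plus strand, ENSG00000126432) and had 39.4, 37.9 and 31.7 CPM in shControl and 50.4, 48.1 and 47.4 CPM in shTRIM21. The rise was 0.42 (SE 0.10, adjusted p = 0.00909), or 0.23 under the GC and length offset (adjusted p = 0.0464). PRDX2 (0.14) and PRDX4, the form of the endoplasmic reticulum (0.04), had overlapping groups and did not pass. Mitochondrial PRDX3 had 259, 249 and 284 CPM in shControl and 232, 245 and 241 CPM in shTRIM21. Its shTRIM21 values all lay below the controls, the closest pair by 3.41 CPM, with a log2 fold change of -0.14 (SE 0.06, adjusted p = 0.203).

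SOD1, which turns superoxide into hydrogen peroxide in the cytosol, lies on chromosome 21 at 31659622 to 31668931 (plus strand, ENSG00000142168). It had 131, 128 and 141 CPM in shControl and 155, 167 and 166 CPM in shTRIM21, with no overlap. The rise was 0.29 (SE 0.07, adjusted p = 0.0094), or 0.19 under the GC and length offset (adjusted p = 0.0273). Values were 0.26 to 0.28 without shControl replicate 1 or 2 or shTRIM21 replicate 2 or 3, each of which ended the call (adjusted p from 0.0506 to 0.0613). Catalase (CAT), the peroxisomal enzyme that clears hydrogen peroxide, had 19.7, 17.8 and 21.1 CPM in shControl and 18.4, 17.8 and 17.2 CPM in shTRIM21, with overlap (-0.13, SE 0.12, adjusted p = 0.563).

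Of the 4 quinone, carbonyl and epoxide enzymes tested, 0 passed in edgeR, where 1 had an unadjusted p under 0.05, and 0 passed in DESeq2 or limma-voom. NQO1, the quinone reductase often used as a readout of NRF2, had 102, 105 and 113 CPM in shControl and 114, 117 and 130 CPM in shTRIM21. Every shTRIM21 library lay above the controls, the closest pair by 1.31 CPM, and the log2 fold change was 0.18 (SE 0.07, adjusted p = 0.148). NQO1 passed in 2 of the 18 alternative fits. OSGIN1, ME1 (malic enzyme, a source of NADPH) and EPHX1 (microsomal epoxide hydrolase) were at or below 7.65 CPM in every library, with fold changes of 0.24, 0.12 and 0.00. Among the glutathione transferases, GSTP1 had 127, 138 and 112 CPM in shControl and 159, 136 and 144 CPM in shTRIM21, with overlap (0.22, SE 0.08, adjusted p = 0.0862). GSTP1 passed in 3 of the 18 alternative fits. MGST1, a microsomal transferase, was at 0.10 (adjusted p = 0.392).

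The aldo-keto reductases, strong NRF2 targets in many epithelial lines, were near the floor in both groups. AKR1C1 had 0 counts of 150568301 in the 6 libraries, which allows a level of up to 0.0199 CPM for counting error only, while AKR1C2 had 1 count and AKR1C3 had 2. AKR1B10 had counts of 0, 14 and 2 in shControl and 13, 6 and 1 in shTRIM21. AKR1C genes are close copies of each other, and CANX, RPL7A and NDUFS1, transcribed in nearly every cell line, were also listed at 0 in these tables, so a 0 is not read here as absence. Of the multidrug efflux pumps, ABCC1 had 59.4 to 72.8 CPM in shControl and 62.2 to 66.8 CPM in shTRIM21 (log2 fold change -0.03). ABCC2, at most 1.96 CPM in any library, was at -0.76 with an SE of 0.54 (adjusted p = 0.431), and ABCC3 had 10 counts in all.

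**Figure D3:**
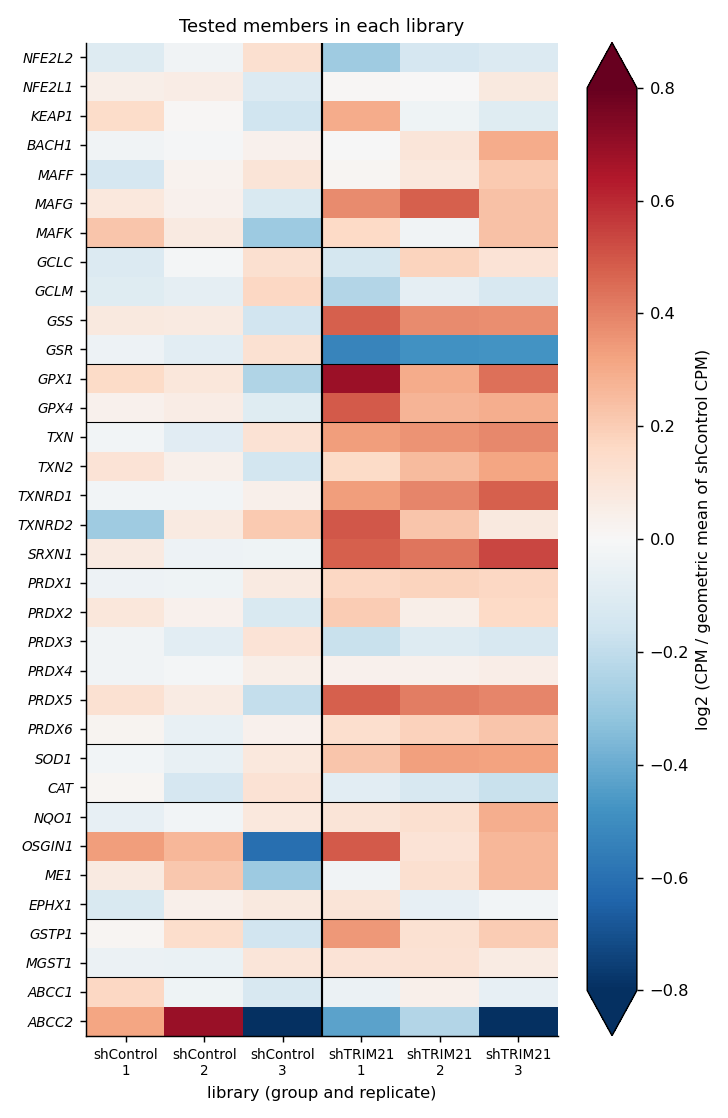
Log2 of the CPM of each tested gene in each library over the geometric mean of the 3 shControl libraries (colour, limited to 0.8 in either direction), with rows ordered by role and lines between roles. TXN, TXNRD1 and SRXN1 are above the controls in all 3 shTRIM21 libraries and GSR is below them, and shControl replicate 3 is blue in GPX1, GSS and PRDX5.

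Within the controls, replicate 3, the library with the lowest share of ribosomal RNA, had the lowest level of MAFG, GSS, GPX1, GPX4 and PRDX5 and the highest of GSR, TXN, TXNRD1 and SOD1. Without it 12 of the 34 genes rose and 1 fell, and 6.55% and 5.62% of all genes did so. Without replicate 3 of both groups 10 rose and 1 fell, against 5.36% and 4.99% of all genes, with all 10 of the changed genes still called and PRDX1 added (0.22, adjusted p = 0.0157). What set this library apart was not tested.

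By level per length in shControl the changed genes ran from rank 2 (TXN) to rank 27 (MAFG) of the 34, and the 7 lowest did not pass. Per kb of the longest annotated transcript, the shControl means ran from 0.234 CPM for ABCC2 to 321 for PRDX1. TXN (200 ± 14.7), PRDX6 (148 ± 5.30) and TXNRD1 (141 ± 3.52) followed PRDX1 in that order (SD, n = 3), and the spreads of PRDX6 and TXNRD1 overlapped. Among the 9 genes that rose, the lowest was MAFG at 8.35 ± 0.615 CPM per kb. NFE2L2 stood at 38.3 ± 3.13 and KEAP1 at 12.8 ± 1.36 CPM per kb. The annotated longest transcript need not be the one these cells use, which limits any comparison between genes.

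**Figure D4:**
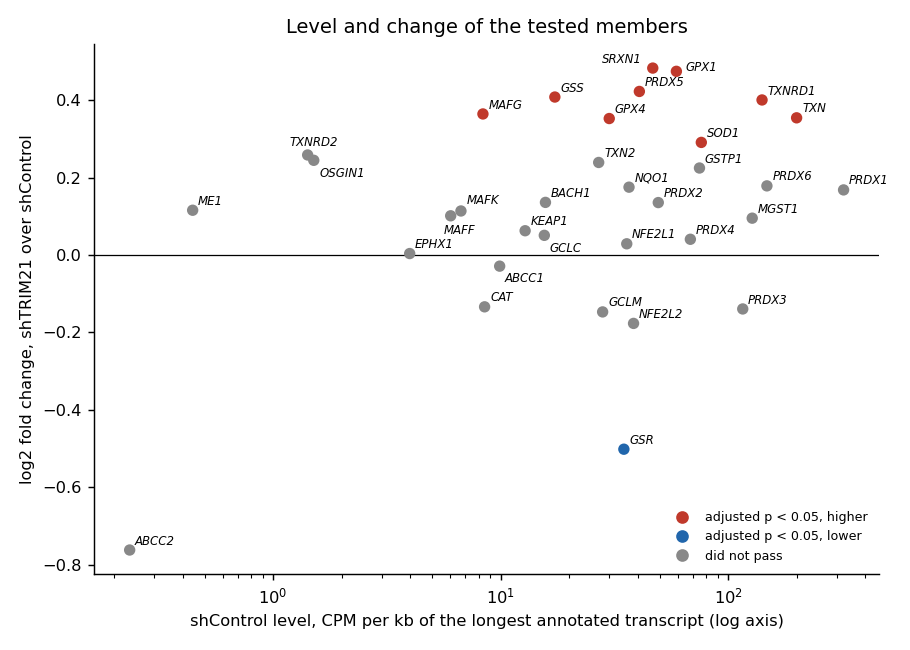
Log2 fold change (y axis) against the shControl level in CPM per kb of the longest annotated transcript (x axis, log scale) for the 34 tested genes. Genes that rose span 8.35 (MAFG) to 200 CPM per kb (TXN), and PRDX1, the highest at 321, did not pass.

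Promoter sequences were searched for the core of the antioxidant response element. RefSeq windows of 300 bases (250 before and 50 after the start, GRCh38.p14) were held for 30 of the 40 genes. For each gene only the first listed window was used, which need not be its main promoter. The motifs were TGACNNNGC and TGAGNNNGC, on both strands, which differ in 1 base and so cannot match the same bases on 1 strand. TGACNNNGC was in 6 of the 30 windows and TGAGNNNGC in 10, or in 20% and 33.3%, and 1 or both were in 14 (46.7%). Over all 35116 windows of the table, with every window of a gene counted, the shares were 13.3%, 18.3% and 29.1%. Over the 10513 windows of tested genes, 1 per gene, they were 15%, 20.4% and 32.3%. Of the 9 genes that rose, 7 had a window, and 1 of these, TXNRD1, held a match.

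Windows are shown for TXNRD1 (chr12:104215529-104215828, plus strand) and SRXN1 (chr20:653151-653450, minus strand) for genes that rose, and GCLM (chr1:93909381-93909680, minus strand) and GSTP1 (chr11:67583562-67583861, plus strand) for genes that hold the motif and did not pass. They are written 5′ to 3′ on the gene's strand, and capitals mark every match to either motif on either strand.
TXNRD1: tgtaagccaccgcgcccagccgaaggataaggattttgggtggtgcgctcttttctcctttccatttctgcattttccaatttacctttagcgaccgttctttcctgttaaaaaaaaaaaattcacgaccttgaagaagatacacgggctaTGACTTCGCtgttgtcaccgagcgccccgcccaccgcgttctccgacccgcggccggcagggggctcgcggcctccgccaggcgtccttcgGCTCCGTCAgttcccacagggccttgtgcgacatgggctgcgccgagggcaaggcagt
SRXN1: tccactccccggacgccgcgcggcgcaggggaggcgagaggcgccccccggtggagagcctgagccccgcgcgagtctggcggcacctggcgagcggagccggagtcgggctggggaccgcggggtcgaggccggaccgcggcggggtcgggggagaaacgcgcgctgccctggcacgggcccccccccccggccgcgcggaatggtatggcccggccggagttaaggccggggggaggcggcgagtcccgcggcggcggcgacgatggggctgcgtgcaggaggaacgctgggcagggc
GCLM: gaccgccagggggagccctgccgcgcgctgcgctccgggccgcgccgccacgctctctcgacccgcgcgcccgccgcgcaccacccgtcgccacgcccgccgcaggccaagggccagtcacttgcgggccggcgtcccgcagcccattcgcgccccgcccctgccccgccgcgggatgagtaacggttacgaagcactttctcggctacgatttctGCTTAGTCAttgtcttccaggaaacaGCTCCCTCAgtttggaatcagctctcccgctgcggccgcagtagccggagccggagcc
GSTP1: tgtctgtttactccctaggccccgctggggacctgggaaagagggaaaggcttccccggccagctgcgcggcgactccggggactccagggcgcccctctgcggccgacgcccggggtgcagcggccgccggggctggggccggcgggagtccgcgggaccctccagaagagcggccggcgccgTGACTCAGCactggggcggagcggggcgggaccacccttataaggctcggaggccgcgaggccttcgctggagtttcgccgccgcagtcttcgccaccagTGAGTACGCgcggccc
In TXNRD1 the match on the gene's own strand, TGACTTCGC, spans bases -99 to -91 from the start, counting the first base after the start as 1, and a further match lies at -8 to 1 on the other strand. GSTP1 holds TGACTCAGC at -66 to -58, and GCLM holds TGACTAAGC at -34 to -26 on the opposite strand. SRXN1 has no match in this window. A match is a description of these letters, and bases outside the window were not searched.

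Other features moved with the fold changes. The 34 tested genes had a median GC content of 53.6% and a median longest transcript of 2776 bases, and the 9 that rose had 54.2% and 1746 bases. Over all tested genes with an annotated transcript the medians were 48.1% and 3508 bases, with 50.01% and 2984 bases for all that rose and 42.2% and 5362 bases for all that fell. Under the GC and length offset, 11 of these genes were higher and 3 lower, against 7.49% and 7.19% of all genes in that fit. Their median was 0.08, and 21 of the 34 were positive, against 49.1% of all genes. In that fit 8 of the 9 rises and the GSR decrease remained, GPX4 was lost, BACH1, PRDX6 and NQO1 were called higher (0.23, 0.14 and 0.17), and NFE2L2 and PRDX3 were called lower (-0.18 and -0.15). GC content and length were corrected together, and the part of either in these differences was not tested.

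**Figure D5:**
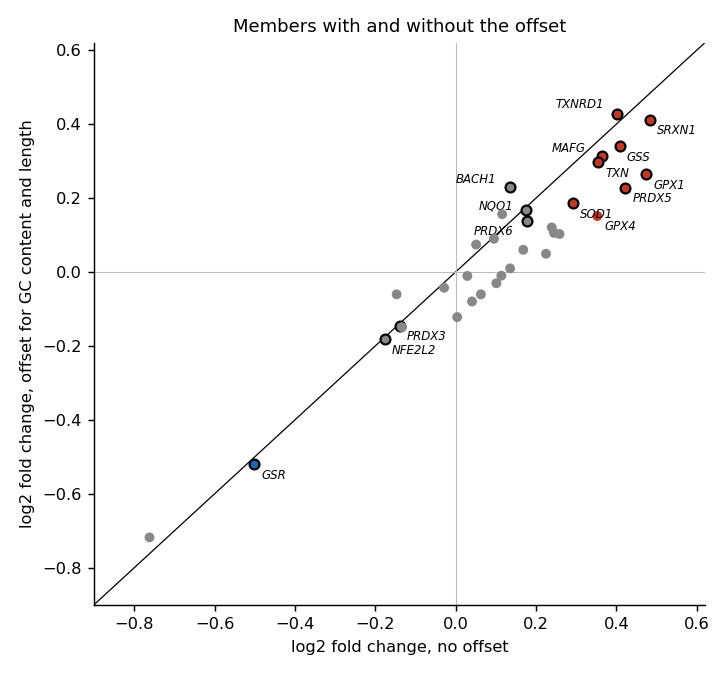
Log2 fold change of each tested gene without (x axis) and with (y axis) the GC and length offset, where colour marks the call without the offset (red higher, blue lower, grey not passed), a black outline marks an adjusted p under 0.05 with it, and the line marks equal values. With the offset the red points run from 0.15 for GPX4 to 0.43 for TXNRD1. Most of them lie below the line, TXNRD1 lies above it, and GSR stays near the line.

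The 3′ UTRs were searched for the 7-base sequences that went with the fold changes of all genes in earlier work on these libraries. AGTGGAA, linked there to lower values, was in GSR, the gene that fell, but also in TXNRD1, which rose, and in NFE2L1 and ABCC1, which did not pass. GTGTCAC, linked to higher values, was in SRXN1 and MAFG, which rose, and in BACH1. The 3′ UTRs differ in length, with 4335 bases in MAFG and 120 in PRDX5, and the share of all genes with either sequence was not counted. Both sequences were picked from the same fold changes, these genes included, so this is a description, and their part in the changes was not tested.

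Annotation and copies limit some counts. Of the 10 changed genes, GSS, GSR, GPX1, GPX4, TXN and PRDX5 have no other annotated gene on either strand of their locus. The other 4 (MAFG, TXNRD1, SRXN1 and SOD1) do, and reads of such neighbours may be counted together. On the same strand TXNRD1 is overlapped by EID3 and a pseudogene, SRXN1 by another protein-coding gene, and SOD1 by a snoRNA. Pseudogenes named after TXN (7), SOD1 (3) and GPX1 (2) are annotated and have no row of their own in the tables, so how reads shared with them were counted is not known.

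Further genes of the pathway, listed with earlier results of these data known, also rose more often than they fell. Of 74 listed, 66 were tested, 14 rose and 1 fell, with a median of 0.13 and 51 that did not pass. Over all tested genes 4.43% rose and 4.66% fell. The 6 of smallest adjusted p among those that rose were GLRX (glutaredoxin, which uses glutathione to reduce mixed disulfides; 179 to 339 CPM on average, log2 fold change 0.92, SE 0.06), HMOX1 (heme oxygenase 1; 1.34, SE 0.11), GSTO1 (a glutathione transferase; 0.58, SE 0.06), FTL (ferritin light chain; 0.56, SE 0.08), SOD2 (mitochondrial superoxide dismutase; 0.44, SE 0.06) and SQSTM1 (p62, an autophagy receptor that binds KEAP1; 0.44, SE 0.07). The 1 that fell was FBXW11 (-0.37, SE 0.07), a substrate adaptor of the ubiquitin ligase that can mark NRF2 independently of KEAP1. Its close relative BTRC (-0.07) and CUL3 (-0.11) did not pass.

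By function, beside those shares of all genes, 3 of 6 heme and iron genes rose and 2 of 6 NADPH genes, which were TALDO1 and UGDH. Of 13 other glutathione peroxidases and transferases tested 4 rose. A list of other thioredoxin and glutaredoxin genes, which also held sestrins and methionine sulfoxide reductases, had 14 tested. Of these 14, 2 rose, GLRX and the sestrin gene SESN1, the latter close to the threshold (adjusted p = 0.0499). A list of other superoxide and carbonyl enzymes, which also held the transporters ABCC4, ABCC5, ABCG2 and SLC6A9, had 10 genes tested. Of these 10, 2 rose, SOD2 and CBR1. The list of the KEAP1 ligase, NFE2 family and MAF partners also held BTRC, FBXW11, GSK3B, CREBBP and EP300. Of its 9 tested genes 1 rose, 1 fell and 7 did not pass. Fold changes were negative in 7 of the 9, from -0.37 for FBXW11 to -0.02 for GSK3B, and the median was -0.10. Of the 8 genes of cystine import and glutathione turnover 0 passed edgeR's test, where 4 had an unadjusted p under 0.05, and 0 passed in DESeq2 or limma-voom. SLC7A11, the cystine transporter, was at 0.29 (SE 0.10, adjusted p = 0.0888).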

How the data were processed

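The submitters' processing notes name TopHat2 (2.1.1), edgeR (3.38.1), limma (3.52.2) and the hg38 build, without their roles. The values deposited by the authors are raw counts, 1 whole number per gene symbol and library, not normalized. What counted the reads, with which annotation and strand setting, and how reads with more than 1 position were treated is not given in the sources used here.

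All 6 libraries were fitted in edgeR 4.0.16 under R 4.3.3, with the default filter on low counts, TMM scaling, the quasi-likelihood test with no covariate, and Benjamini-Hochberg adjustment over 14002 genes at a threshold of 0.05. The SE is the size of the log2 fold change over the square root of F. CPM is relative to the TMM-scaled library. Lengths, GC content and 3′ UTRs are of the longest annotated sequence in GENCODE release 29, promoters are from RefSeq, and sequences were searched with Python 3.11.15. Alternatives covered scaling, filters, DESeq2 1.42.0, limma-voom (limma 3.58.1), left-out genes and libraries, the replicate number as a block, and a GC and length offset. Full values are given for TRIM21, changed members, NFE2L2, KEAP1, BACH1, NQO1, GCLM and TXNRD1, and for up to 6 other pathway genes per direction by smallest adjusted p. The members, lists, alternatives and this rule were chosen with earlier results of these data known. The selenoprotein list, the per-length ratios, the motifs and the other genes given with values were chosen after values were seen.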

Additional observations from a re-analysis of the deposited data

How the results depend on the processing

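All 10 changed genes of the 34 tested kept their direction in the 18 alternative fits, and 6 kept their call in each (GSS, GSR, TXN, TXNRD1, SRXN1 and PRDX5), while MAFG, GPX1, GPX4 and SOD1 lost it in some. Leaving out each library in turn, genes of the list called higher numbered 6 to 12, against 9, with 1 lower each time, while 2.07% to 6.55% of all genes were called higher. Leaving out replicate 3 of both groups gave 10 higher and 1 lower. The offset for GC content and length called 3 lower in place of 1, and 2 of the other pathway genes lower in place of 1. All genes called were 602 to 1737 when 1 library was left out and 1936 with the offset, against 1272. For TRIM21 the range was -0.82 to -0.56 over the fits that leave out 1 library, and it was -0.45 without both libraries numbered 3. Beyond the loss of libraries, the cause was not tested. Deviations of same-numbered libraries from their group means correlated at 0.096, -0.0123 and 0.0907, with numbers 1 and 3 correlating best with their own number, and the fit is unpaired. With the replicate block 10 members were higher and 1 lower, GSTP1 being the addition at 0.23 (adjusted p = 0.0323).

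Of the 24 genes that did not pass, 7 were called in some alternative fit and 9 changed direction in some fit. Over the fits that leave out 1 library NFE2L1 ranged from -0.0161 to 0.0587, KEAP1 from -0.0689 to 0.14, MAFK from -0.0134 to 0.23, GCLC from -0.0124 to 0.14, ME1 from -0.0111 to 0.226, EPHX1 from -0.0535 to 0.0515 and ABCC1 from -0.086 to 0.0572. Without replicate 3 of both groups NFE2L1 was -0.0383, MAFK -0.0681 and ME1 -0.084. With the offset NFE2L1 was -0.0108, KEAP1 -0.0606, MAFF -0.0305, MAFK -0.0101, PRDX4 -0.0798 and EPHX1 -0.122. EPHX1 was -0.0031 with RLE scaling, -0.0021 with total counts, -0.0042 in DESeq2, -0.0025 without the 20 most abundant genes and -0.0078 without rRNA genes.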

Other observations

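Selenoproteins carry selenocysteine, an amino acid inserted at a recoded stop codon, and include 5 of the 40 genes (GPX1, GPX2, GPX4, TXNRD1 and TXNRD2). A list of 25 human selenoproteins was made after the values of those genes were seen. Of 18 tested, 4 rose, 0 fell and 14 did not pass in edgeR's test, and the median log2 fold change was 0.16. Over all tested genes 4.43% rose and 4.66% fell. Outside the 40 genes 1 of 14 rose, a share near that of all genes. It was SELENOH, a nucleolar redox protein, from 19.7, 20.8 and 19.0 CPM in shControl to 27.3, 26.3 and 27.6 CPM in shTRIM21 (0.45, SE 0.11, adjusted p = 0.013). TXNRD3, the relative of thioredoxin reductase best known from testis, had 7.81, 7.52 and 8.01 CPM in shControl and 5.38, 5.71 and 4.83 CPM in shTRIM21, all lower, and did not pass (-0.55, SE 0.19, adjusted p = 0.0743). SELENOI, an enzyme of phospholipid synthesis, was at -0.20 (adjusted p = 0.0576).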
